A study of Homo sapiens with 24 samples.

Results

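The genes described here are 36 genes of the autophagy machinery and its cargo receptors. They were taken from the 60617 genes of the count table by Ensembl identifiers that carry the listed symbols. That rule uses no measured value, but the list of symbols was drawn up with earlier results of these data known. They fall into 6 groups by role: 5 ATG8 proteins, 5 cargo receptors, 5 genes of the ULK initiation complex, 6 genes of the class III PI3-kinase complexes, 6 genes for PI3P effectors, lipid transfer and membrane supply, and 9 genes for ATG8 conjugation and processing. Of the 36, 35 were among the 15476 genes with enough counts to be tested. The remaining member, MAP1LC3A, had at most 2 counts in any library.

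RNASeq was performed on MDA686TU, a malignant cell line from squamous cell carcinoma of head and neck, in 4 groups of 6 libraries. Cells received no compound, 40 µM EGCG (a green tea polyphenol), 15 µM resveratrol (a phytoalexin of grapes), or the combination of both at these doses, and RNA was collected after 24 h. Resveratrol was taken from a DMSO stock and EGCG was prepared in water, and whether DMSO was added to the control cells is not stated, so the effects of resveratrol and of its solvent cannot be told apart. The replicates all come from 1 cell line and no source says that they were separate cultures, so the p-values measure the spread between these libraries, which may be technical. The comparisons ask what each agent did alone and whether the combination differed from either agent.

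Autophagy encloses cytoplasmic material in a double membrane, the autophagosome, which fuses with the lysosome. The ULK kinase complex starts the process, the class III PI3-kinase marks the forming membrane with PI3P, WIPI and ATG2 proteins bring lipid to it, and a conjugation system of ATG7, ATG3 and the ATG12-ATG5-ATG16L1 complex attaches the small ATG8 proteins (the LC3 and GABARAP proteins) to it. Cargo receptors such as SQSTM1 bind both ubiquitinated cargo and ATG8 proteins and are degraded together with the cargo. Transcript levels alone therefore do not measure how much material is degraded.

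Library totals ranged from 7034872 to 11735574 counts, with group medians between 7887159 with the combination and 9072849 in the control. The share of mitochondrial transcripts was 0.249% to 0.326% in the libraries of replicates 1 to 3, and in those of replicates 4 to 6 it was 0.448% to 0.775%. No label names a batch, and each of these sets holds 3 libraries of every group. The 7 squamous epithelial markers (KRT5, KRT14, KRT17, KRT6A, TP63, CDH1 and EPCAM) summed to between 4288 and 5848 FPKM in every library. The sum was 5395 to 5737 FPKM in the control and 4393 to 4666 FPKM with resveratrol. The 4 keratins were lower there without overlap, while CDH1 went from 66.9 ± 0.677 to 81.7 ± 1.58 FPKM without overlap, and TP63 (53.7 ± 1.51 and 52.1 ± 1.36) and EPCAM (86.8 ± 2.44 and 87.3 ± 2.44) overlapped between the 2 groups (SD, n = 6). The 3 fibroblast markers (COL1A1, COL1A2 and DCN) summed to 10.4 to 20.3 FPKM. The sum was 12.9 to 15.7 FPKM in the control and 17.7 to 20.3 FPKM with the combination. Nearly all of it was COL1A1, at 13.8 ± 1.08 FPKM in the control and 19.3 ± 1.03 FPKM with the combination (SD, n = 6). COL1A2 reached at most 0.296 FPKM and DCN at most 0.00959 FPKM in any library, so the shift of the sum was that of COL1A1. The immune markers PTPRC and CD3E summed to at most 0.0504 FPKM and the endothelial markers PECAM1 and VWF to at most 0.209 FPKM. The part of these marker shifts in the results below was not tested, and in bulk RNA fewer cells of a type and less RNA per cell cannot be told apart.

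Autophagy genes differed from the control with resveratrol and with the combination, mostly upward, and with EGCG alone none was called when all 24 libraries were fitted by group. A gene was called when edgeR's quasi-likelihood test gave a Benjamini-Hochberg adjusted p under 0.1 and an unadjusted p under 0.05. With resveratrol, 24 of the 35 tested genes were called against the control, 21 higher and 3 lower. Over all tested genes 56.9% were called, 28.9% higher and 28.0% lower. With the combination, 25 were called, 21 higher and 4 lower, beside 59.8% of all tested genes, with 29.9% higher and 29.9% lower. The median log2 fold change of the 35 genes was 0.14 under resveratrol and 0.20 under the combination, and the median over all tested genes was 0.00 in both. A call with at least a 1.5-fold change was made for 6 of the genes with resveratrol, beside 9.78% of all tested genes, and for 10 with the combination, beside 11.9%.

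The libraries of many of these genes separated completely. All 6 resveratrol libraries lay above all 6 control libraries for 15 genes and below them for 2, beside 31.1% of all tested genes that did not overlap in either direction. With the combination these numbers were 18 and 3, beside 31.9%. EGCG alone gave 0 calls among the 35 genes with edgeR and 0 with DESeq2, beside 1.76% of all tested genes with edgeR. An unadjusted p under 0.05 was reached with EGCG by 2 of them, MAP1LC3B and CALCOCO2, and the median log2 fold change was 0.01. The share of all tested genes at this unadjusted limit was not computed, so no meaning is given to this count. MAP1LC3B was called with EGCG when control replicate 2, EGCG replicate 4 or combination replicate 3 was left out (log2 fold change 0.11 to 0.13).

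**Figure D1:**
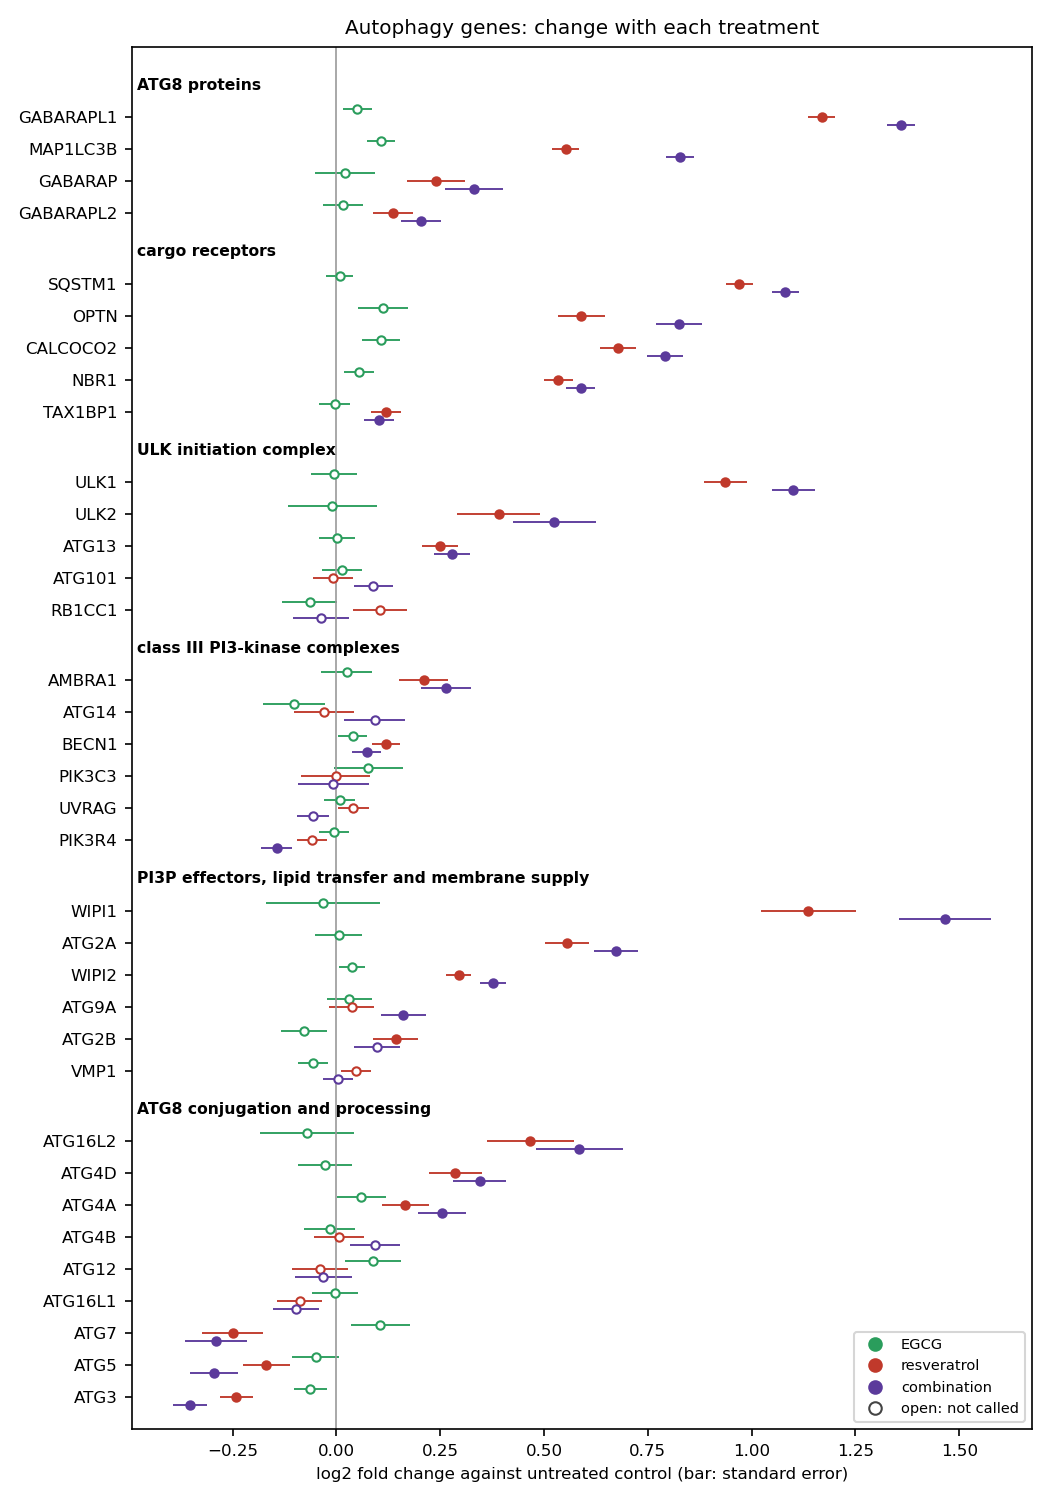
Log2 fold change (x axis) of the 35 tested autophagy genes against the untreated control, by group of genes, for EGCG, resveratrol and the combination. Points are edgeR estimates, bars are standard errors, and filled points are called; all EGCG points are open, and WIPI1, GABARAPL1, ULK1 and SQSTM1 lie farthest to the right, with ATG3, ATG5 and ATG7 to the left of 0.

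Upstream sequences were searched for 5 short motifs, because most of the called genes moved in one direction. RefSeq windows of GRCh38.p14 were present for 32 of the 36 genes, all but MAP1LC3A, RB1CC1, UVRAG and ATG4D, and the 250 bases before each start were read on both strands. The E-box CACGTG and its longer form TCACGTG, the core of the CLEAR element bound by TFEB, overlap each other by construction. Both were found upstream of ATG14 and ATG3 alone, 2 of 32 genes (6.25%), beside 7.73% and 4.02% of all genes with a window. None of the 20 genes with a window that were called higher with the combination held either form. At such low shares among all genes few matches in 20 genes are expected, so no conclusion is drawn from this absence. Bases farther upstream were not searched. The core of the antioxidant response element, TGACNNNGC, was found for MAP1LC3B, CALCOCO2 and ATG101, 3 of 32 genes (9.38%), beside 13.2% of all genes. The core of the ATF4 composite element, TGATGNAA, was found for 0 of 32 beside 3.89%, and the FOXO site TGTTTAC for CALCOCO2 alone beside 3.66%. A match is a description of the letters and not a bound site. The 5 windows below are shown because they are all the members with the antioxidant response element core (MAP1LC3B and CALCOCO2, called higher, and ATG101, not called) or the CLEAR core (ATG3, called lower, and ATG14, not called with the combination against the control). Each is printed 5′ to 3′ on the strand of its gene with the match in capitals, whose first base is 46, 129, 120, 19 and 21 bases before the start, in the order printed. They are chr16:87392086-87392335, chr17:48830785-48831034 and chr12:52069728-52069977 on the plus strand, and chr3:112561963-112562212 and chr14:55411831-55412080 on the minus strand. In CALCOCO2 and ATG14 the match is on the strand opposite to the gene.
MAP1LC3B: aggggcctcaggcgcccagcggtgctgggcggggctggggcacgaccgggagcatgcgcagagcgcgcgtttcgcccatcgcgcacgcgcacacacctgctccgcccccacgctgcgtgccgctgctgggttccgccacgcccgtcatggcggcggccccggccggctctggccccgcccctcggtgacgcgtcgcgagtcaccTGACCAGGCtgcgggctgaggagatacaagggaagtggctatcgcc
CALCOCO2: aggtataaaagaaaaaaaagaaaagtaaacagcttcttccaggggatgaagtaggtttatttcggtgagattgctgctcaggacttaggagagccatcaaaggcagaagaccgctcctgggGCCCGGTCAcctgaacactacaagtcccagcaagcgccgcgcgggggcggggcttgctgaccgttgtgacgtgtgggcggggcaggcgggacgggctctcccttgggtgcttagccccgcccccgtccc
ATG101: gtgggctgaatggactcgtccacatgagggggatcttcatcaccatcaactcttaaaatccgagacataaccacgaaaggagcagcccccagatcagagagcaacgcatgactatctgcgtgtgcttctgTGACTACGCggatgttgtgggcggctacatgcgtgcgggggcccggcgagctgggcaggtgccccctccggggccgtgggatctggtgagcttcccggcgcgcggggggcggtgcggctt
ATG3: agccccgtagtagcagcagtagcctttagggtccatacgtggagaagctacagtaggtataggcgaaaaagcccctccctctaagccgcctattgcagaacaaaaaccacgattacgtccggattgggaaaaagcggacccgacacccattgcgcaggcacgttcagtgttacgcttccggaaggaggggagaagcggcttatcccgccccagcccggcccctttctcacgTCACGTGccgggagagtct
ATG14: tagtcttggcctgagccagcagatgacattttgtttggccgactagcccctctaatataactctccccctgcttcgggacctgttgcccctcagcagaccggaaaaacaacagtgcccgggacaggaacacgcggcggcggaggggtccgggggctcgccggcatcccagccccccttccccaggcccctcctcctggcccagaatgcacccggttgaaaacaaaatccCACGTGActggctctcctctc

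The ATG8 proteins, which coat the growing membrane and hold cargo receptors to it, were called higher in 4 of 4 tested genes under resveratrol and in 4 of 4 under the combination. Over all tested genes 28.9% were called higher under resveratrol and 29.9% under the combination. GABARAPL1 (ENSG00000139112, chr12:10212458-10223128), a member of the GABARAP branch, had the largest changes of the group. Its normalized counts (lowest, median and highest of 6 libraries) were 631, 670.1 and 691 in control libraries, 636, 698 and 732 in EGCG libraries, 1459.9, 1489.8 and 1569.6 in resveratrol libraries and 1663, 1713 and 1740.5 in combination libraries. Control and EGCG libraries overlapped, every resveratrol library lay above both, and every combination library lay above every resveratrol library. The log2 fold change against the control was 1.17 (SE, the standard error, 0.0332, edgeR adjusted p = 9.4e-26), or 2.25-fold, under resveratrol and 1.36 (SE 0.0332, adjusted p = 4.8e-28), or 2.57-fold, under the combination.

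MAP1LC3B (ENSG00000140941, chr16:87383953-87404779), which encodes the LC3 protein that is the usual marker of autophagosomes, showed the same order of groups. Its normalized counts were 799, 827 and 883 in control libraries, 840.5, 894 and 927 in EGCG libraries, 1151, 1215 and 1255 in resveratrol libraries and 1387, 1491 and 1518 in combination libraries. Again only the control and EGCG libraries overlapped. Against the control the change was 0.55 on the log2 scale (SE 0.0331, adjusted p = 2.0e-16) under resveratrol and 0.83 (SE 0.033, adjusted p = 1.1e-21) under the combination. Reads of MAP1LC3B and its near-identical copy MAP1LC3B2 may be split between them. The 2 genes summed to 1025 ± 35.3 normalized counts in control libraries, 1099 ± 28.9 in EGCG libraries, 1494 ± 45.5 in resveratrol libraries and 1817 ± 61.4 in combination libraries (SD, n = 6). MAP1LC3B also shares 60 exon bases with FBXO31 on the opposite strand, whose mean was 302 normalized counts in the control and 319 with the combination.

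The other measured ATG8 genes rose less. GABARAP, the founding member of its branch, was at 144 ± 5.74 normalized counts in the control, 169.8 ± 15 under resveratrol and 181 ± 17 under the combination (SD, n = 6), with log2 fold changes of 0.24 (adjusted p = 0.0040) and 0.33 (adjusted p = 0.00013). GABARAPL2 was at 520.1 ± 28.2, 570.2 ± 56.1 and 597 ± 12.9, with log2 fold changes of 0.14 (adjusted p = 0.017) and 0.20 (adjusted p = 0.00055). The resveratrol libraries of GABARAPL2 overlapped the control libraries and those of the combination did not. The call of GABARAPL2 with resveratrol was lost in 2 of 36 alternatives, with adjusted p up to 0.22. Among these was the limit of a 1.5-fold change. MAP1LC3A was at or near 0 in all groups, with 0 to 1 counts per library in the control and 1 to 2 with the combination, and no fold was computed for it.

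Measured per length, the make-up of the ATG8 transcripts shifted toward GABARAPL1. Its share of the summed FPKM of the 5 genes was 28.6% ± 0.95 in control libraries, 28.5% ± 1.31 in EGCG libraries, 41.6% ± 1.14 in resveratrol libraries and 42.0% ± 0.534 in combination libraries (SD, n = 6). GABARAPL2 went from 30.0% ± 1.29 to 19.7% ± 0.356 with the combination and GABARAP from 12.8% ± 0.498 to 9.2% ± 0.75. MAP1LC3B stayed at 28.6% ± 0.933 and 29.0% ± 0.679. Its near-identical copy MAP1LC3B2 is not among the 5 genes, so MAP1LC3B reads that may have been counted there are left out. MAP1LC3B2 was at a mean of 195 normalized counts in the control and 347 with the combination. These shares were not tested.

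Cargo receptors, which link ubiquitinated proteins or damaged organelles to ATG8 proteins, were called higher in 5 of 5 genes under resveratrol and in 5 of 5 under the combination. The share called higher over all tested genes was 28.9% and 29.9%. SQSTM1 (ENSG00000161011, chr5:179806398-179838078), also named p62, is the receptor of ubiquitinated protein aggregates and had the largest change of the 5. Its normalized counts were 1804, 1941 and 2000.1 in control libraries, 1824, 1959 and 2024 in EGCG libraries, 3618, 3772 and 3862 in resveratrol libraries and 3852, 4084 and 4245 in combination libraries. All libraries with resveratrol, alone or combined, lay above all libraries without it, while resveratrol and combination libraries overlapped. SQSTM1 had a log2 fold change of 0.97 (SE 0.0318, adjusted p = 5.0e-24), or 1.96-fold, under resveratrol and 1.08 (SE 0.0319, adjusted p = 1.4e-25), or 2.12-fold, under the combination. On the opposite strand SQSTM1 shares 1582 exon bases with MRNIP and 105 with MGAT4B. MRNIP was at a mean of 87.3 normalized counts in the control and 114 with the combination, and MGAT4B at 1083 and 1318.

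OPTN (ENSG00000123240, chr10:13099449-13138308), optineurin, is a receptor for damaged mitochondria and bacteria. Its normalized counts were 178, 200.2 and 219 in control libraries, 202, 214 and 236 in EGCG libraries, 267, 298 and 335 in resveratrol libraries and 342, 348 and 379.6 in combination libraries. The resveratrol and combination libraries lay above all control libraries and did not overlap each other. OPTN rose by 0.59 on the log2 scale (SE 0.0568, adjusted p = 5.4e-11) under resveratrol and 0.82 (SE 0.0563, adjusted p = 4.8e-15) under the combination.

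CALCOCO2, also named NDP52 and a receptor for bacteria and mitochondria, went from 457 ± 33.1 normalized counts in the control to 729 ± 32.1 under resveratrol and 789 ± 14.4 under the combination (SD, n = 6). Its log2 fold changes were 0.68 (adjusted p = 1.4e-15) and 0.79 (adjusted p = 1.5e-17). NBR1, which acts with SQSTM1 on aggregates and on peroxisomes, was at 977 ± 36.8, 1410.1 ± 29.1 and 1465 ± 36.3, with log2 fold changes of 0.53 (adjusted p = 1.5e-15) and 0.59 (adjusted p = 8.0e-17). Neither gene had an overlap between control libraries and libraries of these 2 treatments. TAX1BP1, a receptor related to CALCOCO2, changed least, with log2 fold changes of 0.12 (adjusted p = 0.0056) and 0.10 (adjusted p = 0.016). The call of TAX1BP1 with the combination was lost in 2 of 36 alternatives, with adjusted p up to 0.20. Among these was the limit of a 1.5-fold change. By FPKM, SQSTM1 made up 38.4% ± 0.987 of the 5 cargo receptors in the control and 49.4% ± 1.09 with the combination, and TAX1BP1 30.1% ± 0.562 and 19.6% ± 1.13 (SD, n = 6, not tested).

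**Figure D2:**
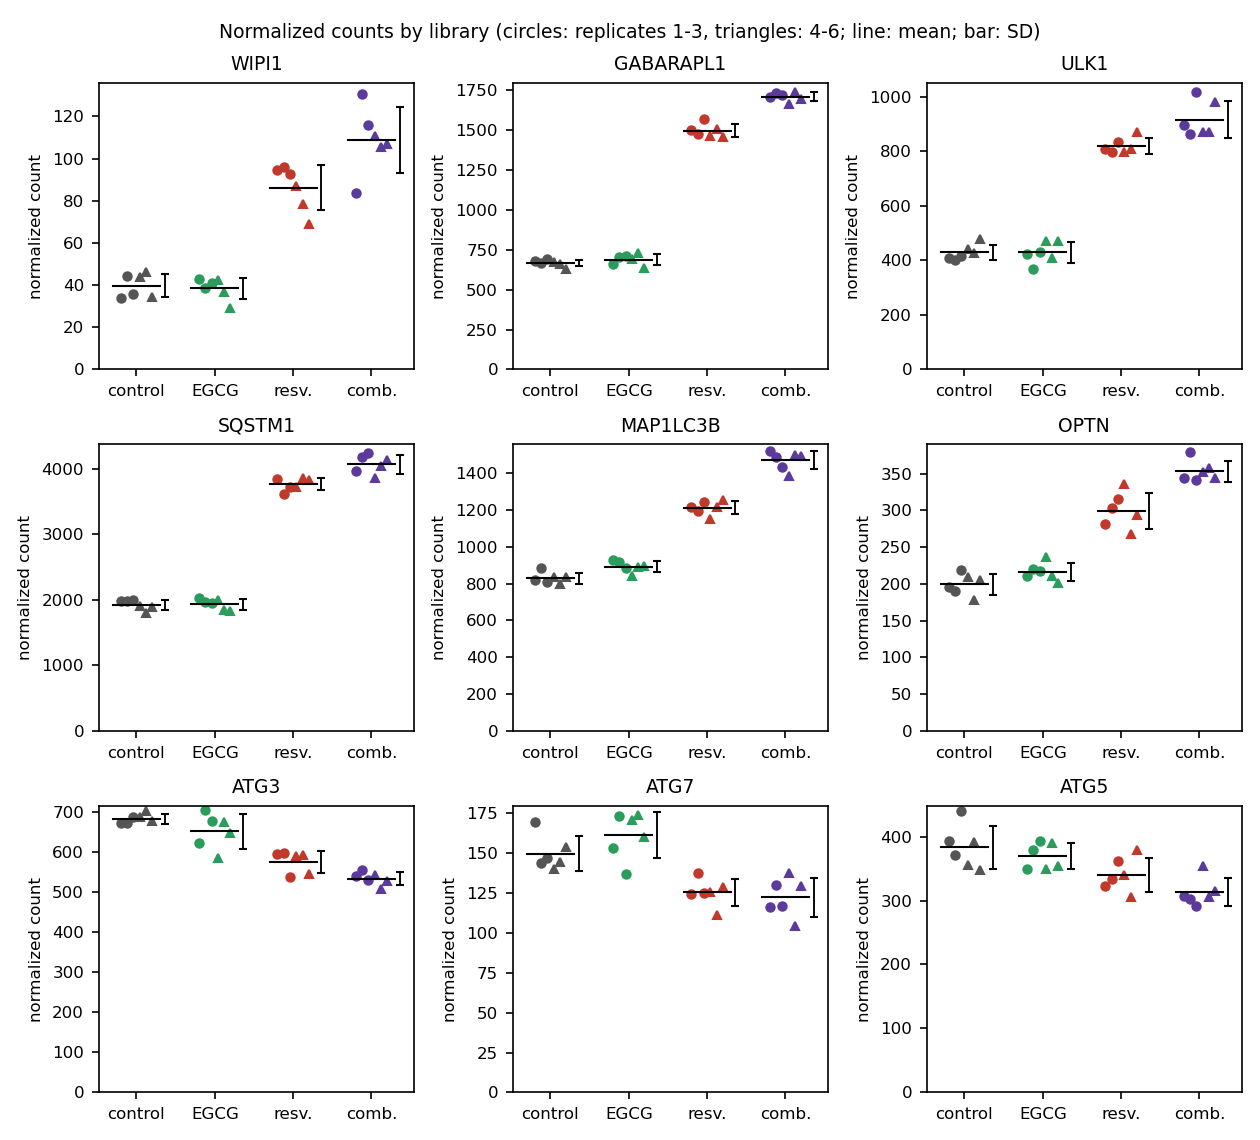
Normalized counts (y axis, from 0) of 9 autophagy genes in each of the 24 libraries, by treatment (x axis). Circles are replicates 1 to 3, triangles are replicates 4 to 6, lines are means and bars are SD over 6 libraries; for WIPI1, GABARAPL1, ULK1, SQSTM1, MAP1LC3B and OPTN the control and EGCG libraries lie together below the resveratrol and combination libraries, and for ATG3, ATG7 and ATG5 the means with both treatments lie below the control mean.

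In the ULK initiation complex the kinases and ATG13 were called higher and the other subunits were not. ULK1 (ENSG00000177169, chr12:131894622-131923150) encodes the protein kinase that starts autophagosome formation. Its normalized counts were 403, 422 and 478 in control libraries, 369, 427 and 473 in EGCG libraries, 798, 808 and 872 in resveratrol libraries and 864, 884 and 1019 in combination libraries. The libraries of both resveratrol treatments lay above all others, and they overlapped each other. For ULK1 this was a log2 fold change of 0.94 (SE 0.0516, adjusted p = 2.0e-17) under resveratrol and 1.10 (SE 0.0515, adjusted p = 1.2e-19) under the combination. ULK2, the related kinase, went from 73.1 ± 10.8 normalized counts to 95.4 ± 9.78 and 105 ± 14.5 (SD, n = 6), with log2 fold changes of 0.39 (adjusted p = 0.0013) and 0.52 (adjusted p = 3.1e-05). ATG13, the adaptor that holds the complex together, had log2 fold changes of 0.25 (adjusted p = 7.4e-06) and 0.28 (adjusted p = 1.1e-06).

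Neither RB1CC1, the scaffold subunit also named FIP200, nor ATG101, which stabilizes ATG13, was called. The log2 fold change of RB1CC1 was 0.10 with resveratrol (95% interval -0.02 to 0.23) and -0.04 with the combination (-0.17 to 0.09). For ATG101 it was -0.01 (-0.10 to 0.08) and 0.09 (-0.01 to 0.18). These intervals leave out changes of the size seen for ULK1.

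The class III PI3-kinase complexes, which make PI3P on the forming membrane, changed little. With resveratrol 2 of 6 genes were called, both higher, and with the combination 2 were called higher and 1 lower. The share called over all tested genes was 56.9% with resveratrol and 59.8% with the combination. AMBRA1, a regulatory protein that binds BECN1, went from 253 ± 16.2 normalized counts to 292 ± 21.1 under resveratrol and 303 ± 17 under the combination (SD, n = 6), with log2 fold changes of 0.21 (adjusted p = 0.0035) and 0.26 (adjusted p = 0.00034). BECN1, the Beclin 1 subunit common to these complexes, had log2 fold changes of 0.12 (adjusted p = 0.0036) and 0.07 (adjusted p = 0.071). BECN1 shares 300 exon bases with PSME3 on the opposite strand. PSME3 was at a mean of 3237 normalized counts in the control and 2862 with the combination. The call of BECN1 with the combination was lost in 12 of 36 alternatives, with adjusted p up to 0.31. Among these were DESeq2 (adjusted p = 0.12), a test of every gene with a count (0.30), either set of 3 replicates alone (0.26 and 0.31) and the fits without control replicate 1 or 4 or combination replicate 1, 3, 5 or 6, with log2 fold changes from 0.06 to 0.08. PIK3R4, the regulatory kinase subunit VPS15, was at 587 ± 18.1 normalized counts in the control and 531 ± 18.1 with the combination, a log2 fold change of -0.14 (adjusted p = 0.0011) with no overlap of libraries. Its log2 fold change with resveratrol was -0.06 (adjusted p = 0.17). PIK3C3, the catalytic subunit VPS34, and UVRAG and ATG14, which direct the enzyme to endosomes and to autophagosomes, were not called in either comparison, with log2 fold changes between -0.06 and 0.09. ATG14 shares 1047 exon bases with FBXO34 on the opposite strand. FBXO34 was at a mean of 406 normalized counts in the control and 428 with the combination.

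Among the PI3P effectors, WIPI1 (ENSG00000070540, chr17:68420948-68457513), which binds PI3P on the forming membrane, had the largest log2 fold change of the 35 tested genes with the combination. Its normalized counts were 34.1, 39.9 and 46.4 in control libraries, 29.3, 39.8 and 42.9 in EGCG libraries, 69.1, 89.8 and 95.8 in resveratrol libraries and 83.4, 109 and 131 in combination libraries. The control and EGCG libraries overlapped and lay below all others, and the resveratrol and combination libraries overlapped. The log2 fold change was 1.14 (SE 0.114, adjusted p = 1.5e-10), or 2.20-fold, under resveratrol and 1.47 (SE 0.111, adjusted p = 9.0e-14), or 2.76-fold, under the combination. Its counts were low, and it shares 829 exon bases with ARSG on the opposite strand, which was at a mean of 19.5 normalized counts in the control and 24.1 with the combination.

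WIPI2, which recruits ATG16L1 to PI3P, rose in both comparisons, from 956 ± 21.3 normalized counts to 1169 ± 21.7 and 1239 ± 37 (SD, n = 6), with log2 fold changes of 0.29 (adjusted p = 2.7e-10) and 0.38 (adjusted p = 4.6e-13). ATG2A, a lipid transfer protein, had log2 fold changes of 0.55 (adjusted p = 5.0e-11) and 0.67 (adjusted p = 2.9e-13). The libraries of WIPI2 and ATG2A with either treatment lay above all control libraries. ATG2B, the paralog of ATG2A, was called with resveratrol (0.14, adjusted p = 0.027) but not with the combination (0.10, adjusted p = 0.14). The resveratrol call of ATG2B was lost in 3 of 36 alternatives, with adjusted p up to 0.19. Among these were the limit of a 1.5-fold change and the fit without control replicate 3 (0.10, adjusted p = 0.11). ATG9A, the membrane protein of the seed vesicles, was called with the combination (0.16, adjusted p = 0.011) but not with resveratrol (0.04, adjusted p = 0.59). VMP1, a lipid scramblase of the endoplasmic reticulum, was called in neither, with log2 fold changes of 0.05 and 0.00.

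In ATG8 conjugation and processing 3 of 9 genes were called higher and 3 lower with each of these treatments, shares near those of all tested genes (28.9% and 28.0% under resveratrol, 29.9% and 29.9% under the combination). The 3 genes called lower, ATG3, ATG7 and ATG5, encode the E2-like enzyme, the E1-like enzyme and a part of the E3-like complex that attach ATG8 proteins to lipid. ATG3 (ENSG00000144848, chr3:112532510-112562046) had normalized counts of 671, 681 and 702 in control libraries, 583, 661 and 704 in EGCG libraries, 537, 589.9 and 596 in resveratrol libraries and 507, 535 and 555 in combination libraries. The control libraries lay above every resveratrol and combination library, and the EGCG libraries ranged across the gap. The log2 fold change was -0.24 (SE 0.0401, adjusted p = 4.1e-06) under resveratrol and -0.35 (SE 0.0409, adjusted p = 3.2e-09) under the combination. It shares 124 exon bases with SLC35A5 on the opposite strand, which was at a mean of 166 normalized counts in the control and 186 with the combination.

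ATG7 (ENSG00000197548, chr3:11272309-11557665) had normalized counts of 139.8, 146 and 169.6 in control libraries, 137, 166 and 174 in EGCG libraries, 111, 125 and 137 in resveratrol libraries and 104, 123 and 138 in combination libraries. The control libraries did not overlap those of resveratrol or of the combination. Its log2 fold changes were -0.25 (SE 0.0738, adjusted p = 0.0047) and -0.29 (SE 0.0755, adjusted p = 0.0013). It shares 1597 exon bases with VGLL4 on the opposite strand, which was at a mean of 291 normalized counts in the control and 338 with the combination. ATG5 (ENSG00000057663, chr6:106045423-106325791) had normalized counts of 348, 381 and 440.3 in control libraries, 349.6, 366 and 393 in EGCG libraries, 305, 336 and 379 in resveratrol libraries and 291, 306 and 354 in combination libraries, and all groups overlapped the control. Its log2 fold changes were -0.17 (SE 0.0566, adjusted p = 0.012) and -0.29 (SE 0.0581, adjusted p = 4.9e-05). With resveratrol the ATG5 call was lost in 3 of 36 alternatives, with adjusted p up to 0.33. Among these were the limit of a 1.5-fold change and library size alone as the scale (-0.08, adjusted p = 0.23).

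The 3 genes of this group called higher were ATG16L2, a paralog of the ATG16L1 subunit, and ATG4A and ATG4D, proteases that cut ATG8 proteins before conjugation and release them from membranes. ATG16L2 went from 70.3 ± 13.6 normalized counts to 97.1 ± 11.9 under resveratrol and 105 ± 7.36 under the combination (SD, n = 6), with log2 fold changes of 0.47 (adjusted p = 0.00027) and 0.58 (adjusted p = 1.1e-05). The log2 fold changes were 0.29 (adjusted p = 0.00022) and 0.35 (adjusted p = 1.7e-05) for ATG4D, and 0.17 (adjusted p = 0.014) and 0.25 (adjusted p = 0.00026) for ATG4A. Each of the 3 overlapped the control under resveratrol and lay above it under the combination. On the opposite strand ATG16L2 shares 680 exon bases with FCHSD2, and ATG4D shares 334 with KRI1. FCHSD2 was at a mean of 427 normalized counts in the control and 408 with the combination, and KRI1 at 448 and 408. ATG4B, the protease with the broadest action on ATG8 proteins, and ATG12 and ATG16L1, the partners of ATG5, were not called, with log2 fold changes between -0.10 and 0.09.

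Levels between genes were compared only by the authors' FPKM, a value per transcript length whose length model is not stated. In the control the highest was SQSTM1 at 29.3 ± 1.15 FPKM, followed by TAX1BP1 at 22.9 ± 0.5 and GABARAPL2 at 19.8 ± 1.07 (SD, n = 6). GABARAPL2, VMP1, MAP1LC3B and GABARAPL1, all between 18.9 and 19.8 FPKM, each overlapped their neighbour within these 4 genes, and GABARAPL1 lay above the next gene, ATG101, without overlap. Reads of MAP1LC3B that may have been counted for MAP1LC3B2 are not in its values, so its place in the order is uncertain. With the combination the order began with SQSTM1 at 61.8 ± 2.23 FPKM, GABARAPL1 at 48.3 ± 0.777, MAP1LC3B at 33.4 ± 1.13 and TAX1BP1 at 24.6 ± 1.52, and the first 3 did not overlap the gene after them. The lowest members in the control were WIPI1 at 1.34 ± 0.189 FPKM, ATG16L2 at 0.946 ± 0.183, ULK2 at 0.848 ± 0.126, PIK3C3 at 0.675 ± 0.0576 and MAP1LC3A at 0.0322 ± 0.05. WIPI1, with the largest fold of the tested genes, reached 3.66 ± 0.52 FPKM with the combination.

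**Figure D3:**
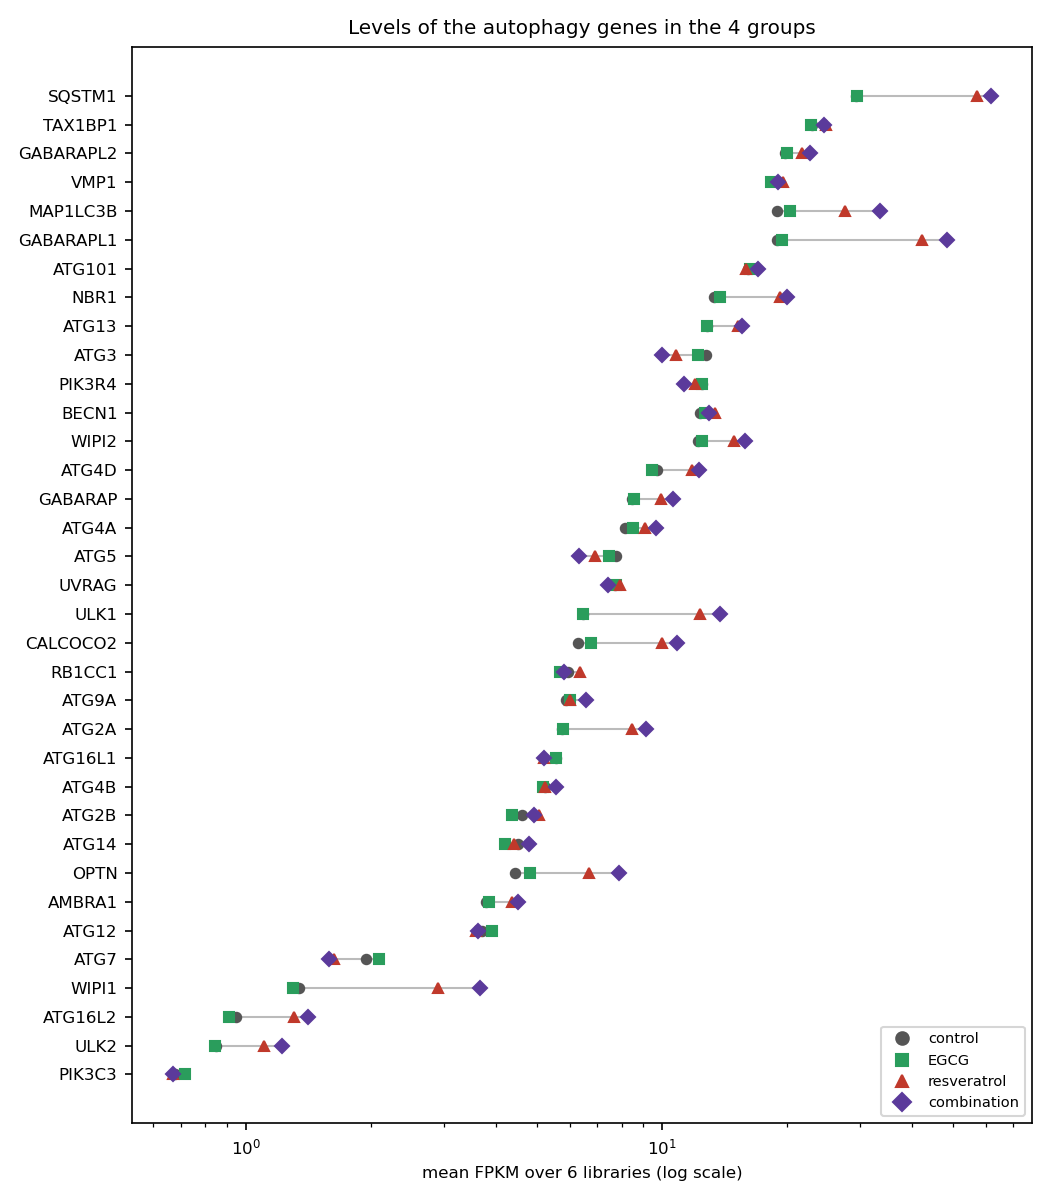
Mean FPKM over 6 libraries (x axis, log scale) of the 35 tested autophagy genes in the 4 groups, ordered by the control mean. SQSTM1 leads in all groups, and the longest shifts from control to combination are those of WIPI1, GABARAPL1, ULK1 and SQSTM1.

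A part of these genes was higher when EGCG was given beside resveratrol. In the combination against resveratrol alone, 6 of the 35 genes were called, all higher, beside 7.86% of all tested genes called and 4.01% called higher. These were WIPI1, MAP1LC3B, OPTN, GABARAPL1, ULK1 and SQSTM1. An unadjusted p under 0.05 was reached by 16, without a share of all tested genes at this limit to set beside it. The median log2 fold change was 0.07. The combination libraries lay completely above the resveratrol libraries for 4 genes, GABARAPL1, MAP1LC3B, OPTN and CALCOCO2, and below them for 1, PIK3R4, beside 3.19% of all tested genes that did not overlap. No member reached a 1.5-fold change.

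The largest difference was that of WIPI1, with a log2 fold change of 0.33 (SE 0.0943, edgeR adjusted p = 0.033), and it was not called without combination replicate 2 (0.27, adjusted p = 0.10) or in replicates 1 to 3 alone (0.23, adjusted p = 0.37). MAP1LC3B differed by 0.28 (SE 0.032, adjusted p = 2.0e-07) and GABARAPL1 by 0.19 (SE 0.0311, adjusted p = 8.9e-05). These 2 ATG8 genes were called in replicates 1 to 3 alone and in replicates 4 to 6 alone, at 0.28 and 0.27 for MAP1LC3B and 0.18 and 0.20 for GABARAPL1. OPTN differed by 0.24 (SE 0.0526, adjusted p = 0.0045), ULK1 by 0.16 (SE 0.0479, adjusted p = 0.037) and SQSTM1 by 0.11 (SE 0.031, adjusted p = 0.027). In replicates 4 to 6 alone OPTN (0.23, adjusted p = 0.15) and SQSTM1 (0.08, adjusted p = 0.46) were not called. ULK1 was called in neither set alone (0.19 and 0.14, adjusted p = 0.10 and 0.27), nor without combination replicate 3 (0.13, adjusted p = 0.11).

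**Figure D4:**
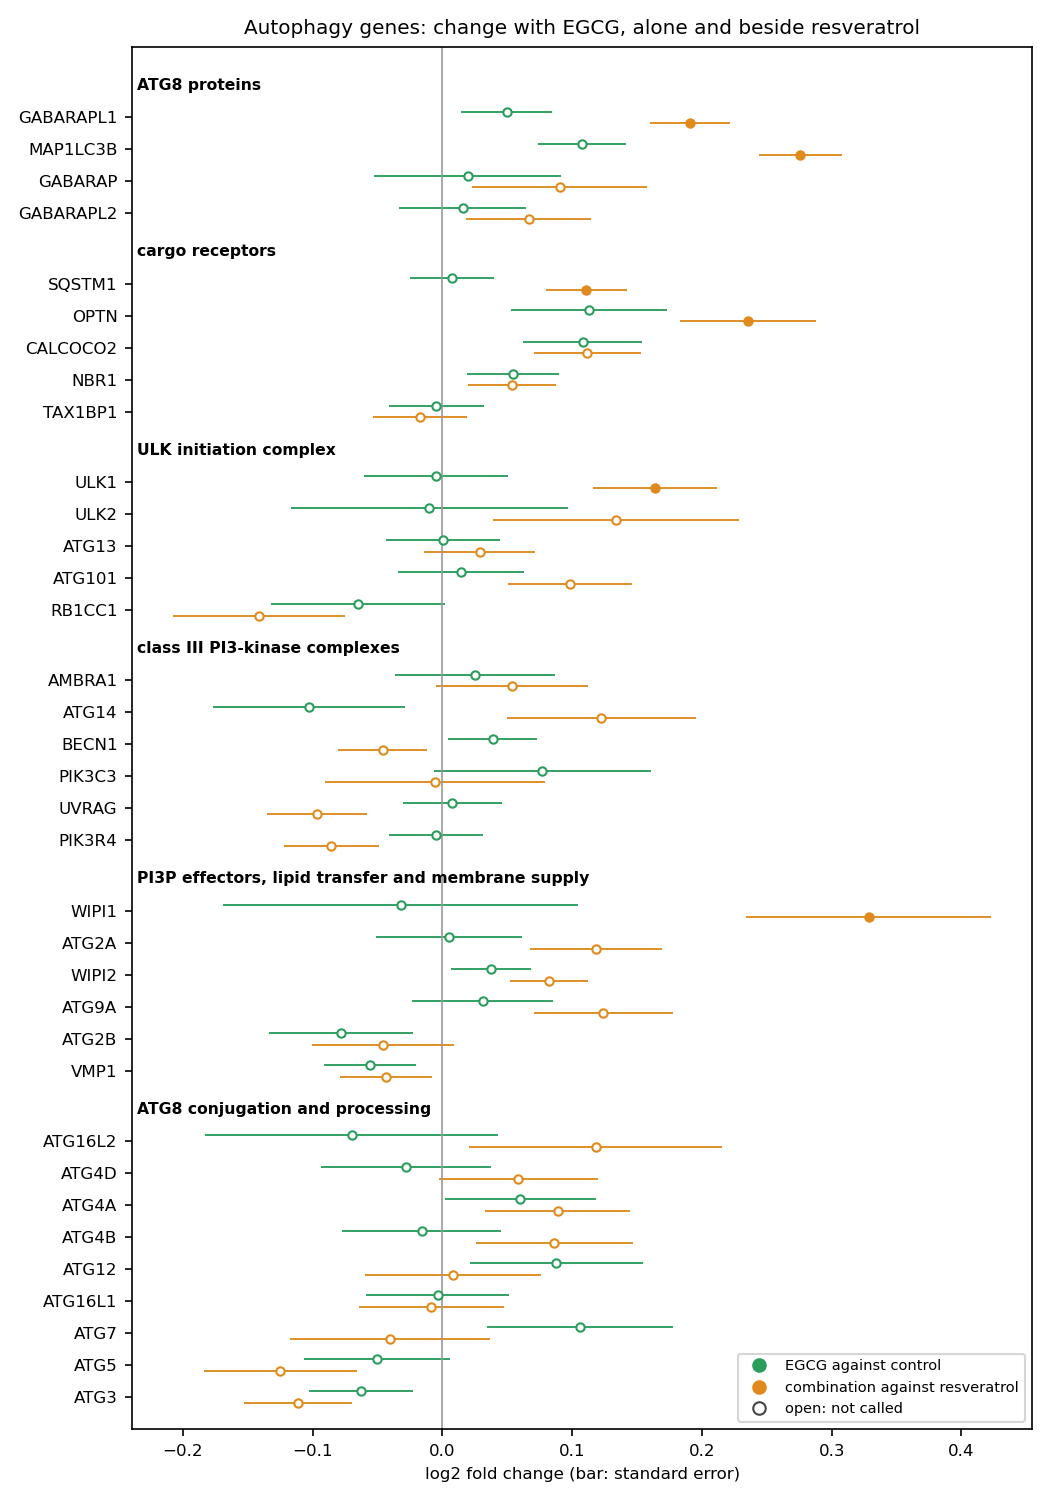
Log2 fold change (x axis) of the 35 tested autophagy genes with EGCG against the untreated control and with the combination against resveratrol, 2 comparisons that share no library. Points are edgeR estimates, bars are standard errors and filled points are called; the 6 filled points belong to WIPI1, MAP1LC3B, OPTN, GABARAPL1, ULK1 and SQSTM1 beside resveratrol, and no gene is filled for EGCG alone.

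Whether EGCG did more beside resveratrol than alone was tested by the interaction of both agents. No member was called by edgeR (0 of 35, with 6 at an unadjusted p under 0.05) and none by DESeq2, beside 0.265% of all tested genes called by edgeR. For the unadjusted limit the share of all tested genes was not computed. The estimates for MAP1LC3B and GABARAPL1 were 0.17 (95% interval 0.08 to 0.26, adjusted p = 0.18) and 0.14 (0.05 to 0.23, adjusted p = 0.36). For ULK1 the estimate was 0.17 (0.03 to 0.31) and for WIPI1 0.36 (0.03 to 0.69), with adjusted p = 0.57 and 0.61. Since these intervals lie above 0 and the adjusted p-values miss the threshold, neither a larger nor an equal change beside resveratrol is shown by this fit.

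Resveratrol beside EGCG was read from the combination against EGCG. Here 26 of the 35 genes were called, 22 higher and 4 lower, beside 57.8% of all tested genes, with 28.7% higher and 29.1% lower. WIPI1 was 2.82-fold higher (adjusted p = 8.3e-14). The log2 fold change was 1.31 for GABARAPL1 (SE 0.0331, adjusted p = 3.4e-27), 1.11 for ULK1 (SE 0.0517, adjusted p = 1.6e-19) and 1.07 for SQSTM1 (SE 0.0319, adjusted p = 3.7e-25). The lowest values were those of ATG7 at -0.40 (adjusted p = 3.1e-05), ATG3 at -0.29 (adjusted p = 2.6e-07) and ATG5 at -0.24 (adjusted p = 0.00062). ATG14 was called higher here (0.20, adjusted p = 0.026), a call that was lost in 3 of 36 alternatives, with adjusted p up to 0.16. Among these were the limit of a 1.5-fold change and the fit without combination replicate 6 (0.15, adjusted p = 0.092, unadjusted p = 0.051).

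Other genes of the pathway, in 5 further lists, changed in both directions as well, and their counts stand beside the 56.9% of all tested genes called under resveratrol and the 59.8% called under the combination. Of 10 tested other core ATG genes, 7 were called higher and 1 lower under resveratrol and 7 and 2 under the combination. The 3 largest changes with the combination were those of ZFYVE1 (DFCP1, a marker of the sites where autophagosomes form; log2 fold change 1.03), MAP1LC3B2 (0.84) and WDR45 (a WIPI protein; 0.75). Reads of MAP1LC3B2 and MAP1LC3B may be split between them, so the change of MAP1LC3B2 may not be separate from that of MAP1LC3B. Of 14 fusion genes, which join the autophagosome to the lysosome, 8 were called higher and 2 lower under resveratrol and 9 and 2 under the combination, led by EPG5 (0.57), VPS18 (0.50) and PLEKHM1 (0.49).

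Selective receptors outside the 5 cargo receptors changed unevenly. Of 10 tested ER-phagy and other selective receptors, 5 were called higher and 1 lower with each treatment, a share called of 60% that is near that of all tested genes. CCPG1 and RETREG1, which target the endoplasmic reticulum, had log2 fold changes of 1.30 and 1.04 with the combination, and CALCOCO1, related to CALCOCO2, of 0.98. Of 8 tested mitophagy receptors and kinases, 3 were called higher and 3 lower under resveratrol and 4 and 2 under the combination. Over all tested genes 28.9% were called higher and 28.0% lower under resveratrol, and 29.9% and 29.9% under the combination. PINK1, the kinase that marks damaged mitochondria, had the largest change of this list at 0.89 (adjusted p = 2.0e-12), and 1907 of its exon bases are shared with PINK1-AS on the opposite strand. PINK1-AS was at a mean of 40.0 normalized counts in the control and 38.5 with the combination. BNIP3L and BNIP3, receptors on mitochondria that are induced in hypoxia, followed PINK1 at 0.57 and 0.53. EGCG alone called both of these receptors and no other gene of the list, beside 1.76% of all tested genes. The values were 0.40 for BNIP3L (adjusted p = 0.00013) and 0.83 for BNIP3, while BNIP3 was lower with resveratrol alone (-0.20, adjusted p = 0.0043).

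Of 21 tested upstream regulators, the longest list, 16 were called higher and 2 lower under resveratrol and 16 and 1 under the combination. The share called over all tested genes was 56.9% under resveratrol and 59.8% under the combination. TP53INP2, an activator of autophagosome formation, led with 1.22 in the combination, followed by DDIT3 (1.08) and TRIB3 (1.04), a transcription factor and a pseudokinase of the stress response. DDIT3 shares 355 exon bases with MARS1 on the opposite strand, which was at 4280.0 normalized counts in the control, so the level of DDIT3 is uncertain. With EGCG alone 3 of the 21 were called, DDIT4 (0.28, adjusted p = 3.3e-06), SESN2 (0.19, adjusted p = 0.020) and TRIB3 (0.20, adjusted p = 0.0043), the first 2 of which encode inhibitors of mTORC1 signalling and were named after their values were seen. The share called with EGCG over all tested genes was 1.76%. Among the genes not tested because of low counts were MAP1LC3C, ATG9B, STBD1, DEPTOR and PRKAA2.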

How the data were processed

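Total RNA of 24 samples (RNeasy kit) was made into TruSeq stranded mRNA libraries and sequenced as paired reads. Per the labels, the submitters' processing notes name bcl2fastq 2.17.1.14, Trimmomatic 0.36, FastQC 0.11.5, HISAT2 2.0.4, SAMtools 1.3.1, DESeq2 1.20.0 and GRCh38. The counting program, annotation release and strand setting are not given in the sources used here, so reads of overlapping or near-identical genes are uncertain. The authors deposited raw counts per gene, normalized counts (a signal, checked to be the counts divided by 1 size factor per library) and FPKM values. Normalized counts gave the levels within a gene and the authors' FPKM the levels between genes. Counting error is within the SD.

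The 24 libraries entered 1 fit of their raw counts by group (edgeR 4.0.16, R 4.3.3, TMM, filterByExpr, quasi-likelihood test). Adjusted p-values are Benjamini-Hochberg over 15476 genes. Standard errors are the log2 fold change divided by the square root of F, and 95% intervals are normal. Overlap of libraries was read on TMM-scaled CPM. Tests were also tried on simulated data. Alternatives were DESeq2 1.42.0, other scalings, filters, thresholds and subsets, a replicate block, and each library left out. Gene positions and exon overlaps came from GENCODE 44 on GRCh38 and upstream windows from RefSeq on GRCh38.p14.

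The members and the lists were chosen with earlier results of these data known, as was the division into replicates 1 to 3 and 4 to 6. All 36 members could be named. Values per library were given for the 3 largest and the 3 smallest log2 fold changes among members called with the combination and for members called in the combination against resveratrol. Of each further list, the 3 called genes with the largest changes with the combination were named.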

Additional observations from a re-analysis of the deposited data

Results flagged for a closer look

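In 140 groups of 6 libraries, the normalized counts of the 35 tested genes in each of the 4 groups, the highest or lowest library stood apart from the other 5 in 2 by Dixon's 95% limit, judged by the gap to the nearest library as a share of the range, and chance alone flags about 1 in 20. For CALCOCO2, resveratrol replicate 5 was at 669.8 normalized counts, with the other libraries between 729 and 762 (share 0.644). For RB1CC1, combination replicate 3 was at 292 normalized counts, with the others between 387 and 438 (share 0.653).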

How the results depend on the processing

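Of the 81 calls of members, 61 were kept under every alternative other than the limit of a 1.5-fold change, and none changed direction under any alternative tried. With that limit the members called were 6 with resveratrol, 10 with the combination, 0 in the combination against resveratrol and 9 in the combination against EGCG. Leaving out each library in turn gave 23 to 25 members with resveratrol, 24 to 27 with the combination, 5 to 8 in the combination against resveratrol, 25 to 29 in the combination against EGCG and 0 to 1 with EGCG. The 1 with EGCG was MAP1LC3B, without control replicate 2, EGCG replicate 4 or combination replicate 3 (log2 fold change 0.11 to 0.13). In replicates 4 to 6 alone the combination against resveratrol gave 3 members, and 4 in replicates 1 to 3 alone, where each fit holds fewer libraries. A fit with a term for replicates 1 to 3 against 4 to 6 kept all 81 calls. It called 24 members with resveratrol, 27 with the combination, 7 in the combination against resveratrol and 26 in the combination against EGCG. With EGCG and in the interaction it called 0.

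No label ties the replicate numbers to a shared culture or day. Libraries of the same number correlated at -0.011 to 0.131 (median 0.049, 2 of 36 pairs over 0.1), those of another number in the same set of 3 at a median of 0.028 and those of the other set at -0.041. Of the 24 libraries, 11 correlated best with their own number, and no count expected without pairing was computed. Any hint of pairing thus comes from the data, not the design, and was not tested. With the replicate block, MAP1LC3B was called with EGCG (0.11, adjusted p = 0.091) and in the interaction (0.17, adjusted p = 0.094), 1 member in each, and the counts were 24 with resveratrol, 27 with the combination, 7 in the combination against resveratrol and 26 in the combination against EGCG.

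With library size alone as the scale, the median of all genes moved to 0.0918 with resveratrol and 0.0813 with the combination, 27 and 29 members were called, and PIK3R4 was not called with the combination (-0.06). Genes with few counts, such as WIPI1, ULK2 and ATG16L2, had the widest errors.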
